A study of Mus musculus with 3 samples.

Results

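The genes described here are 10 genes of autophagy and mitophagy: Ulk1, Becn1, Map1lc3a, Map1lc3b, Gabarap, Gabarapl2, Sqstm1, Bnip3, Bnip3l and Bcl2l13. They were chosen by symbol and not by their values, though with earlier results of these data known. They are 10 of the 32285 genes counted. All 10 had UMIs (unique molecular identifiers, 1 per captured RNA molecule) in the classified cells. The study asked how deregulated human BCL2, a protein that blocks cell death, acts on mouse B cells. Splenic B cells were taken 10 days after 1 immunization with sheep red blood cells and read by droplet 3′ single-cell RNA sequencing, with 1 library per genotype. The 3′RR-BCL2 library came from transgenic mice in which a randomly integrated human BCL2 cassette, with both of its own promoters, was joined to the core enhancers of the immunoglobulin heavy chain 3′ regulatory region. The Igκ-BCL2 library came from knock-in mice in which a BCL2 cassette with the same promoters took the place of the Jκ segments, upstream of the Eκ enhancer. The WT library came from wildtype mice. All mice had a mixed B6/129 background and all 3 groups were immunized, so no library shows an unimmunized spleen. The methods describe magnetic negative selection of B cells for all 3 libraries, while the labels differ: they name sorted B cells for WT only, and cells of whole tissue for the BCL2 libraries. How many mice were pooled per library and their age were not given in the sources used here.

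Autophagy wraps cytoplasm in a double membrane that closes and fuses with the lysosome, where the cargo is digested. A kinase complex built on ULK1 starts the process, a lipid kinase complex that contains BECN1 marks the forming membrane, and small ubiquitin-like proteins of the ATG8 family, among them LC3 and GABARAP, are attached to that membrane and bind cargo receptors. SQSTM1 (p62) carries ubiquitin-tagged cargo, and BNIP3, BNIP3L (NIX) and BCL2L13 sit on the outer mitochondrial membrane and bind ATG8 proteins, which directs mitochondria to autophagy. In B cells the process is known for its part in plasma cell survival and in B cell memory. BCL2 itself binds Beclin 1, and BNIP3, BNIP3L and BCL2L13 are all relatives of the BCL2 family.

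Cells were sorted into 8 classes by lists of marker genes, none of which is among the 10 genes, after each cell had been thinned to 2000 UMIs. Non-dividing germinal center (GC)-like cells numbered 294, 152 and 30 in the 3′RR-BCL2, Igκ-BCL2 and WT libraries, dividing GC-like cells 60, 8 and 17, and plasma-like cells 18, 24 and 9. There were 5222, 5442 and 8746 resting-like cells, the class against which the others were compared. The 3 libraries held 45539172, 37433924 and 62777659 UMIs in 7579, 7034 and 11269 barcodes, of which 15 to 24 were shared by any 2 libraries. Each class list summed highest in its own class in all 3 libraries, with these exceptions. The GC list was highest in dividing GC-like cells of the 3′RR-BCL2 library. The resting list was highest in interferon-activated-like cells of the Igκ-BCL2 library. Cells were assigned by these same lists, so this order was largely fixed in advance and is no separate check of the labels. T cell markers summed to 0 to 12 and macrophage markers to 0 to 11 CPM over all classes and libraries. Xist stood at 1723, 0.138 and 0.123 CPM in resting-like cells of the 3′RR-BCL2, Igκ-BCL2 and WT libraries, so sex and genotype cannot be told apart for the 3′RR-BCL2 library.

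Levels are given as CPM, here UMIs per 1000000 UMIs outside immunoglobulin genes. Only the 3′ end of an RNA is read, so levels are compared within a gene and not between genes. Classes were compared over the 3 libraries as pairs, with counts summed per class and library, edgeR's quasi-likelihood test, the library as a block and Benjamini-Hochberg adjustment over all genes tested. The fold changes of this test use TMM scaling and can differ from the ratio of the levels. Nothing says that the libraries are replicates of each other: they differ in genotype, and a call rests on the fit over all 3, so that a single library can run the other way.

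The start regions of 3 of the genes are shown because the results below turn on their RNA: Map1lc3b and Sqstm1, which were higher in plasma-like cells, and Bnip3, which was called lower in marginal zone-like cells. They run from 250 bases before the start of the gene to 50 bases after it (RefSeq, GRCm38.p6), and 7 of the 10 genes had an entry. Capitals mark matches to ACGTG, the core of the hypoxia response element, to CACGTG, an E-box that contains it, or to TGACNNNGC, the core of the antioxidant response element, on either strand.
Map1lc3b, chr8:121590188-121590487, strand plus: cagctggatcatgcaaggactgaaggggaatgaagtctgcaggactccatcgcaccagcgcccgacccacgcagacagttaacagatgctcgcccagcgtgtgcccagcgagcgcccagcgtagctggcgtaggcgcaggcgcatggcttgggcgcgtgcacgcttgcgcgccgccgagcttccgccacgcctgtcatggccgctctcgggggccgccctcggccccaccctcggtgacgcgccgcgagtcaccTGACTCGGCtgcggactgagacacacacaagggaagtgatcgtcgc
Sqstm1, chr11:50210771-50211070, strand minus: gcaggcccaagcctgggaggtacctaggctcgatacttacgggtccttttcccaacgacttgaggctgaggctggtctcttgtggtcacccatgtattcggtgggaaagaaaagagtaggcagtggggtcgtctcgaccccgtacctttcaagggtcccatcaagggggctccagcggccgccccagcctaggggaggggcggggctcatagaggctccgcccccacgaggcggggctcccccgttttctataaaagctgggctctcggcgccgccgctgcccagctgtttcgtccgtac
Bnip3, chr7:138909457-138909756, strand minus: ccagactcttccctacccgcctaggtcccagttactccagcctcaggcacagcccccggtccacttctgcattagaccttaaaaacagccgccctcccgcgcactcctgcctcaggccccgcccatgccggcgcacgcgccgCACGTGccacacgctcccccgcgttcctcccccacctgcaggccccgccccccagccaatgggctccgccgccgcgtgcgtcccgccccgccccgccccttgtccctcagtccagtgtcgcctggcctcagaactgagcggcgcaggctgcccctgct
Bnip3, a gene known to be induced by hypoxia, held CACGTG, whose letters give ACGTG on both strands. Gabarap and Gabarapl2 each held ACGTG once. GENCODE starts Gabarap at chr11:69991143, so most of its window, chr11:69991120-69991419, and its match lie inside the annotated gene. Over all 32851 promoters of the table, 19.6% held ACGTG and 7.15% held CACGTG. TGACNNNGC was present once in Map1lc3b, at the start of the transcribed part, and 2 times in Bcl2l13, against 12.4% of all promoters. No match was found in the windows of Sqstm1 and Ulk1. These matches are letters in a window and were not tested as binding sites.

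Map1lc3b was the gene of the 10 with the most calls above resting-like cells: it rose in plasma-like, transitional-like and non-dividing GC-like cells. It encodes LC3B, the ATG8 protein most used as a mark of autophagosomes. In plasma-like cells it stood at 520, 601 and 411 CPM in the 3′RR-BCL2, Igκ-BCL2 and WT libraries, against 255, 259 and 226 CPM in their resting-like cells. All 3 plasma-like values lay above all 3 resting-like ones. The log2 fold change was 0.99 ± 0.19 (SE, 3 pairs, edgeR adjusted p = 5.685e-06). Counted per cell, plasma-like cells held 6.44, 7.29 and 6.0 Map1lc3b UMIs, against 1.5, 1.38 and 1.26 in resting-like cells, which also hold less RNA in all.

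In transitional-like cells, immature B cells that have newly reached the spleen, Map1lc3b reached 499, 472 and 380 CPM in the 3′RR-BCL2, Igκ-BCL2 and WT libraries, again above every resting-like value (log2 fold change 0.65 ± 0.12, edgeR adjusted p = 2.51e-06). With cells thinned to 1000 UMIs before classification it was 0.62 (adjusted p = 0.0512). In non-dividing GC-like cells it stood at 368, 423 and 322 CPM (log2 fold change 0.52 ± 0.13, edgeR adjusted p = 0.000311), above the resting-like range as well. Without the 3′RR-BCL2 library, which held most of the GC-like cells, the change in non-dividing GC-like cells was 0.54 with an adjusted p of 0.149. Dividing GC-like cells had 263, 221 and 231 CPM, values that overlapped those of resting-like cells. Set directly against non-dividing GC-like cells, Map1lc3b fell by 0.63 on the log2 scale in dividing GC-like cells (edgeR adjusted p = 0.0449), a call that was lost whichever of the 3 libraries was left out. Activated (MYC-high)-like cells, which express Myc and genes of ribosome building, had 238, 210 and 167 CPM, each below the resting-like value of its own library (log2 fold change -0.28 ± 0.08, edgeR adjusted p = 0.00308). That call was lost without the WT library, at -0.17, and by DESeq2, with all classes in one fit and with no replicate block, at -0.24, -0.24 and -0.27.

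**Figure D1:**
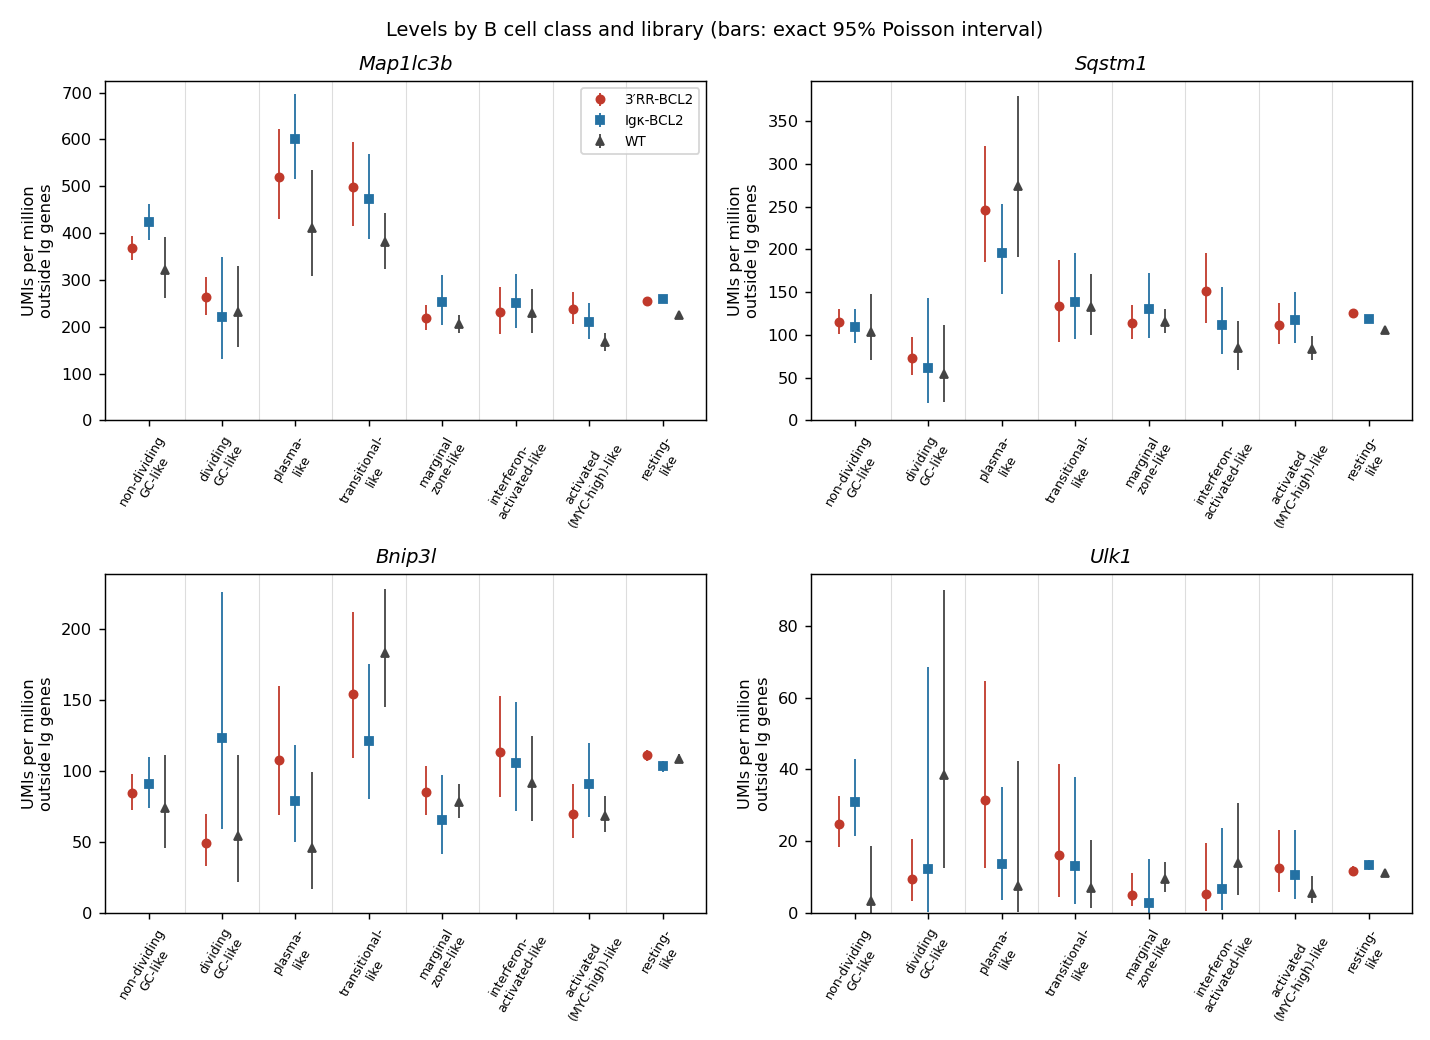
Levels of Map1lc3b, Sqstm1, Bnip3l and Ulk1 in CPM outside immunoglobulin genes (vertical axes, each from 0) in 8 B cell classes (horizontal axis), with 1 point per library and exact 95% Poisson intervals, which cover counting error only. Map1lc3b reached 411 to 601 CPM in plasma-like cells and 380 to 499 in transitional-like cells, above the resting-like range of 226 to 259.

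Sqstm1, the p62 cargo receptor, moved in opposite directions in plasma-like and in dividing GC-like cells. In plasma-like cells it stood at 246, 196 and 274 CPM in the 3′RR-BCL2, Igκ-BCL2 and WT libraries, against 125, 119 and 106 CPM in resting-like cells, with no overlap (log2 fold change 0.95 ± 0.21, edgeR adjusted p = 0.000103). This rise depended on which barcodes counted as plasma-like. The class kept barcodes over the upper limits on genes and UMIs, because plasma cells are rich in RNA, and 8, 11 and 4 of its barcodes lay outside the limits used for the other classes. Sqstm1 stood at 88.2, 201 and 178 CPM (7, 26 and 8 UMIs) in the barcodes within those limits, and at 334, 192 and 324 CPM (48, 31 and 28 UMIs) in those beyond them. With only the barcodes within the limits the log2 fold change was 0.21 (adjusted p = 0.894), and with a rule that asked for any 4 of the 13 plasma markers it was 0.20 (adjusted p = 0.463). Map1lc3b held its call under both of these rules, at 0.90 (adjusted p = 0.048) and 0.40 (adjusted p = 0.0247).

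Plasma-like barcodes with 3 or more GC markers numbered 7, 2 and 1, and no doublet caller was run. Immediate early genes, which respond within minutes to handling and stimulation, differed in both directions in the same class. Of the 18 tested, 8 were higher and 7 lower in plasma-like cells. Jun, among the highest, stood at 2078, 6899 and 3003 CPM in plasma-like cells of the 3′RR-BCL2, Igκ-BCL2 and WT libraries, against 781, 859 and 441 CPM in resting-like cells. Nr4a1 (-2.16) and Atf3 (-2.08) were the lowest. Their part in the Sqstm1 values was not tested.

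In dividing GC-like cells Sqstm1 stood at 72.9, 61.5 and 54.0 CPM (46, 5 and 7 UMIs), below every resting-like value. It fell by 1.09 ± 0.25 on the log2 scale (edgeR adjusted p = 0.000118), and without the 3′RR-BCL2 library the change was -1.21 (adjusted p = 0.0537). With cells thinned to 1000 UMIs it was -0.97 (adjusted p = 0.128). All genes tested had a median change of -0.39 in that comparison, and with library totals in place of TMM the median was -0.14 and the Sqstm1 change -0.84. Immediate early genes were low there too, with 15 of 18 lower, 0 higher and a median of -1.38. Non-dividing GC-like cells had 115, 109 and 104 CPM of Sqstm1, and its change of -0.17 ± 0.15 did not pass the test.

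Bnip3l, the mitophagy receptor NIX, fell in both GC-like classes, in marginal zone-like cells and in activated (MYC-high)-like cells. Resting-like cells had 111, 103 and 109 CPM in the 3′RR-BCL2, Igκ-BCL2 and WT libraries. Non-dividing GC-like cells had 84.8, 90.8 and 73.7 CPM, all lower, and the log2 fold change was -0.41 ± 0.15 (edgeR adjusted p = 0.0284). Marginal zone-like cells, which sit at the border of the white pulp and answer blood-borne antigen, had 85.1, 65.2 and 78.2 CPM (log2 fold change -0.44 ± 0.11, edgeR adjusted p = 0.000631). In activated (MYC-high)-like cells the values were 70.1, 90.9 and 68.7 CPM (log2 fold change -0.54 ± 0.11, edgeR adjusted p = 1.899e-05). In these 3 classes no value reached the resting-like range.

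Dividing GC-like cells differed between libraries, with 49.2, 123 and 54.0 CPM of Bnip3l (31, 10 and 7 UMIs). The Igκ-BCL2 value, from 8 cells, lay above the resting-like range and the others below it. Bnip3l fell by 1.09 ± 0.25 there (edgeR adjusted p = 0.000181). Without the 3′RR-BCL2 library the change was -0.62 with an adjusted p of 0.482, and in non-dividing GC-like cells it was -0.41 with an adjusted p of 0.467. Leaving out the Igκ-BCL2 library gave -0.50 (adjusted p = 0.101) in non-dividing GC-like cells. In marginal zone-like cells the call was also lost by DESeq2 (adjusted p = 0.0762), with 1 more marker required (adjusted p = 0.306), with thinning to 1000 UMIs (adjusted p = 0.447) and with no replicate block (adjusted p = 0.0675). Leaving out the WT library gave -0.44 (adjusted p = 0.127) in these cells and -0.43 (adjusted p = 0.0545) in activated (MYC-high)-like cells. Bnip3l is also abundant in red cell precursors. The 7 erythroid markers summed to 2 to 6 CPM in marginal zone-like cells and 8 to 18 in resting-like cells, and to 23 to 37 and 23 to 61 in non-dividing and dividing GC-like cells. Their part in the Bnip3l values was not tested. Transitional-like cells had 154, 121 and 183 CPM, above the resting-like range, with a log2 fold change of 0.34 ± 0.15 that did not pass the test under TMM (adjusted p = 0.272) and did with library totals (0.54, adjusted p = 0.0159).

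The related receptor Bnip3 was sparse in every class. In marginal zone-like cells it gave 0, 0 and 7 UMIs in the 3′RR-BCL2, Igκ-BCL2 and WT libraries, the last equal to 3.13 CPM, against 8.49, 9.24 and 8.44 CPM in resting-like cells. Set against a floor of 3 UMIs per library, it was at least 3.29-fold lower in marginal zone-like cells of the 3′RR-BCL2 library, and at least 1.13-fold lower in those of the Igκ-BCL2 library. The test called it lower (edgeR adjusted p = 0.000143), and without the 3′RR-BCL2 library the adjusted p was 0.0695 and with 1 more marker required 0.208. In non-dividing GC-like cells it gave 12, 6 and 1 UMIs, with each library below its resting-like level, and the log2 fold change of -0.78 ± 0.40 did not pass the test (edgeR adjusted p = 0.146). Other genes that hypoxia induces did change in that class: 9 of 17 tested were higher and 2 lower, beside 12.6% and 13.6% of all genes. The lower genes were Vegfa (-1.57) and Pdk1 (-0.68). Such changes were not particular to that class. In activated (MYC-high)-like cells 8 of the 17 were higher and 1 lower, beside 12.1% and 12.2% of all genes. Hk2, which commits glucose to glycolysis, was among the higher genes in non-dividing GC-like cells. It stood at 104, 83.8 and 73.7 CPM there, against 21.0, 12.7 and 6.35 in resting-like cells. Hk2 was also called higher in dividing GC-like (1.62), plasma-like (1.73), marginal zone-like (1.44) and activated (MYC-high)-like cells (1.15). Bcl2l13, the third mitochondrial receptor, stood between 16.4 and 17.0 CPM in resting-like cells and was called in none of the comparisons.

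Ulk1, the kinase that starts autophagy, rose in non-dividing GC-like cells, with levels above those of resting-like cells in both BCL2 libraries and below them in WT. It stood at 24.8 and 30.9 CPM in non-dividing GC-like cells of the 3′RR-BCL2 and Igκ-BCL2 libraries (52 and 35 UMIs) and at 3.35 in those of WT (1 UMI), against 11.8, 13.3 and 11.2 CPM in resting-like cells. The log2 fold change was 0.89 ± 0.25 (edgeR adjusted p = 0.00285). It was 0.68 (adjusted p = 0.416) without the 3′RR-BCL2 library, 0.64 (adjusted p = 0.303) without the Igκ-BCL2 library and 1.10 (adjusted p = 1.596e-05) without WT. With cells thinned to 1000 UMIs before classification it was 0.06, by DESeq2 0.70 (adjusted p = 0.274), and with 1 more marker required 0.86 (adjusted p = 0.0607). Becn1, the scaffold of the lipid kinase complex, was called in no comparison. Its levels ran from 67.8 to 76.0 CPM in resting-like cells and from 80.1 to 98.8 in non-dividing GC-like cells, which did not overlap (log2 fold change 0.27 ± 0.15, edgeR adjusted p = 0.197).

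The other ATG8 genes gave 4 calls, 2 of them in activated (MYC-high)-like cells. Map1lc3a, which encodes LC3A, stood at 32.5, 28.5 and 13.1 CPM in these cells of the 3′RR-BCL2, Igκ-BCL2 and WT libraries, against 42.7, 41.9 and 31.0 in resting-like cells. Every value was lower than that of its own library (log2 fold change -0.76 ± 0.19, edgeR adjusted p = 0.000383). Without the WT library the change was -0.44 (adjusted p = 0.243), and with no replicate block -0.82 (adjusted p = 0.0618). Map1lc3a also fell by 1.0 ± 0.39 in dividing GC-like cells (edgeR adjusted p = 0.04575), on 18, 1 and 2 UMIs, and this call was lost whichever of the 3 libraries was left out and under each other setting run but the looser cell filter, with changes of -1.56 to -0.38.

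Gabarapl2 fell by 0.33 ± 0.11 in activated (MYC-high)-like cells, at 97.6, 82.0 and 82.3 CPM against 119, 103 and 107 in resting-like cells (edgeR adjusted p = 0.0123), a call lost without the 3′RR-BCL2 or without the WT library. It was called 0.26 ± 0.09 higher in marginal zone-like cells, at 142, 128 and 123 CPM (edgeR adjusted p = 0.0477), a call also lost without either of these libraries. With cells thinned to 1000 UMIs that change was -0.10. Gabarap, the founding member of its branch of the family, was called in no comparison. Its plasma-like levels of 457, 323 and 266 CPM, against 285, 265 and 256 in resting-like cells, gave a log2 fold change of 0.31 ± 0.20 (edgeR adjusted p = 0.347).

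Counted over the 10 genes, 2 rose and 1 fell in non-dividing GC-like cells, where 26.2% of all genes tested were called, 12.6% higher and 13.6% lower. In dividing GC-like cells 0 rose and 3 fell (23.3% of all genes called, 9.53% higher and 13.7% lower). In plasma-like cells 2 rose and 0 fell (15.3% called, 6.6% higher and 8.7% lower), and in transitional-like cells 1 rose (4.47% called, 1.46% higher). Marginal zone-like cells had 1 higher and 2 lower (11.3% called, 5.45% higher and 5.82% lower), and activated (MYC-high)-like cells 4 lower (24.3% called, 12.2% lower). In interferon-activated-like cells edgeR and DESeq2 each called 0 of the 10 (2.8% of all genes called by edgeR). By edgeR 1 of the 10 had an unadjusted p under 0.05, as had 1194 of the 13277 genes tested. Dividing against non-dividing GC-like cells gave 1 lower of 9 tested (8.02% called, 2.48% lower). DESeq2 kept 8 of these 17 calls. It lost Ulk1 and Bnip3l in non-dividing GC-like cells, Map1lc3a and Bnip3l in dividing GC-like cells, Gabarapl2 and Bnip3l in marginal zone-like cells, Map1lc3b and Gabarapl2 in activated (MYC-high)-like cells, and Map1lc3b between the GC-like classes. With 10 genes at most, 1 call moves such a share by 10 percentage points. The median log2 fold change of the 10 genes was 0.11 in non-dividing GC-like, -0.45 in dividing GC-like and 0.32 in plasma-like cells, beside -0.09, -0.39 and -0.31 for all genes.

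Scaling moved some of these counts. With library totals in place of TMM, Bnip3l in non-dividing GC-like cells (-0.34, adjusted p = 0.0779), Map1lc3a in dividing GC-like cells (-0.76, adjusted p = 0.168), Gabarapl2 in marginal zone-like cells (0.24, adjusted p = 0.0782) and Map1lc3b between the GC-like classes (-0.59, adjusted p = 0.0652) were no longer called by edgeR. Bnip3l in transitional-like cells and Gabarap in activated (MYC-high)-like cells (-0.20, adjusted p = 0.0293) were called in addition. Library totals moved the median of all genes by 0.25 in dividing GC-like cells and by 0.20 in transitional-like cells. The share of calls that were higher was 58.3% against 41.0% under TMM in dividing GC-like cells, and 70.0% against 32.7% in transitional-like cells. No called gene of the 10 turned its direction. The fitted sign differed for Becn1 in dividing GC-like cells, for Map1lc3a and Gabarap in transitional-like cells and for Sqstm1 in interferon-activated-like cells, none of them called.

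**Figure D2:**
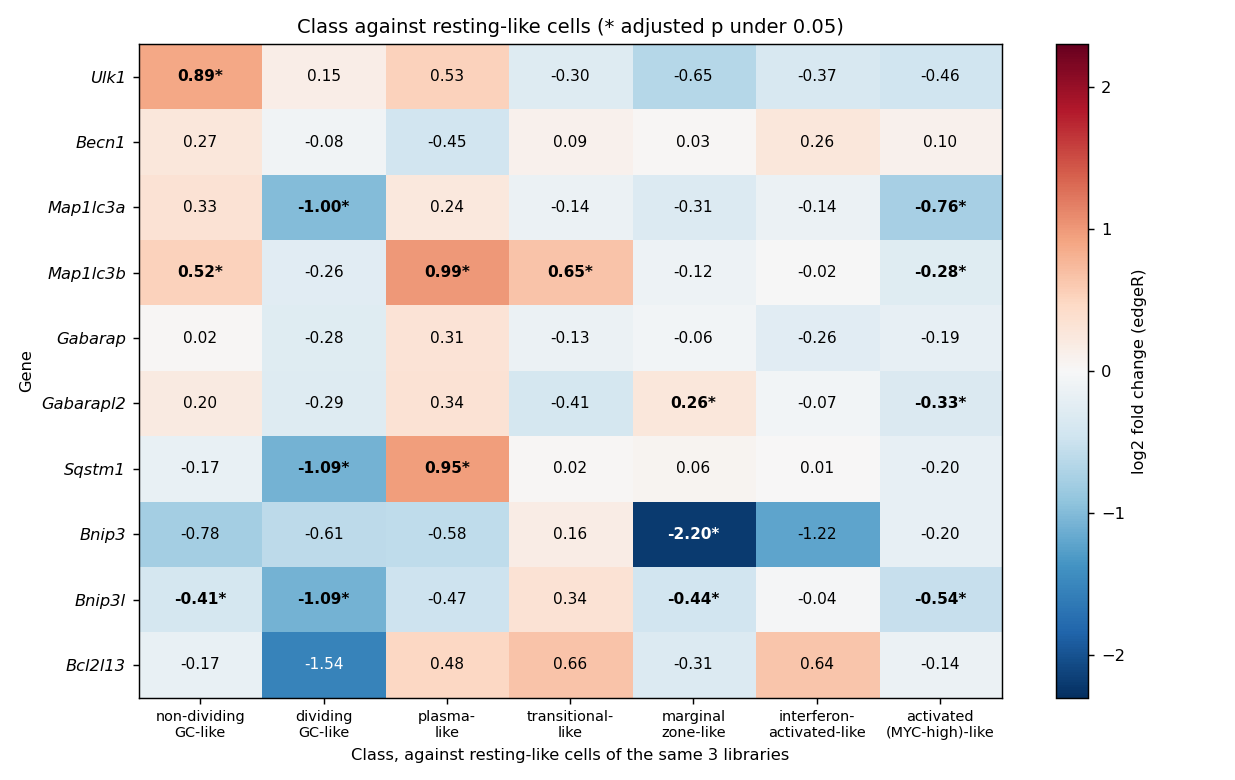
Log2 fold change of each of the 10 genes (rows) in 7 classes against resting-like cells (columns), from edgeR over 3 library pairs. Asterisks mark an adjusted p under 0.05; Map1lc3b was called in 4 of the 7 columns and Bnip3l in 4, while Becn1, Gabarap and Bcl2l13 were called in 0. The Bnip3 values rest on 0 to 12 UMIs per library outside resting-like cells.

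Genes of the same pathway outside the 10 went both ways in non-dividing GC-like and in plasma-like cells. Of 30 other core autophagy genes, 3 were higher and 4 lower in non-dividing GC-like cells, beside 12.6% and 13.6% of all genes. In dividing GC-like cells 0 were higher and 6 lower, beside 9.53% and 13.7%. In plasma-like cells 2 were higher and 3 lower, beside 6.6% and 8.7%. Activated (MYC-high)-like cells had 0 higher and 8 lower, beside 12.1% and 12.2%. The medians of the list were -0.20, -0.81 and -0.28 in non-dividing GC-like, dividing GC-like and plasma-like cells, beside -0.09, -0.39 and -0.31 for all genes. Rubcn, whose protein Rubicon holds back autophagosome maturation, had 113, 157 and 90.4 CPM in non-dividing GC-like cells of the 3′RR-BCL2, Igκ-BCL2 and WT libraries, against 63.6, 63.3 and 67.3 in resting-like cells (log2 fold change 0.88). It had 17.9, 30.9 and 30.4 CPM in plasma-like cells, where it fell by 1.33 on the log2 scale. Vmp1, an endoplasmic reticulum protein needed to build the autophagosome, rose in plasma-like cells, with 71.7, 124 and 152 CPM against 49.6, 44.0 and 48.6 in resting-like cells (log2 fold change 1.20). Pik3r4, a subunit of the Becn1 kinase complex, fell by 1.93 in dividing GC-like and by 1.14 in plasma-like cells. It had 23.8, 12.3 and 30.8 CPM in dividing GC-like and 17.9, 44.6 and 30.4 in plasma-like cells, against 77.4, 51.4 and 90.1 in resting-like cells. In dividing GC-like cells 3 UMIs make 36.9 CPM in the Igκ-BCL2 and 23.1 in the WT library. The other called ends of the list in non-dividing GC-like cells were Atg2a (0.62), Gabarapl1 (-1.61) and Atg4c (-3.71, on at most 1 UMI per library). Ulk2 (-1.43) was called in dividing GC-like cells, at 12.7, 0 and 7.71 CPM in the 3′RR-BCL2, Igκ-BCL2 and WT libraries. Wipi1 (3.61) was called in plasma-like cells, at 8.96, 20.6 and 15.2 CPM. In that class 3 UMIs of the 3′RR-BCL2 library make 13.4 CPM, so the plasma-like changes of Wipi1, Rubcn and Pik3r4 rest on few UMIs.

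Among 13 tested receptors and related genes other than Sqstm1, Bnip3, Bnip3l and Bcl2l13, Optn stood out. The list held the kinase genes Pink1 and Tbk1. Optineurin, a receptor for ubiquitin-coated mitochondria, had 52.9, 47.6 and 13.4 CPM in non-dividing GC-like cells and 72.9, 86.1 and 77.1 in dividing GC-like cells, against 8.42, 7.06 and 5.74 in resting-like cells. Its log2 fold changes were 2.47 and 3.15. Fundc1, a mitophagy receptor of the outer membrane, rose in the same classes (0.74 and 1.11). Tax1bp1, a relative of Sqstm1 in function, fell by 1.04 in non-dividing GC-like cells and by 1.02 in plasma-like cells. Tbk1, the kinase that phosphorylates optineurin, fell in both GC-like classes (-0.71 and -1.67). Calcoco1 fell in dividing GC-like cells (-4.10, on 1, 0 and 0 UMIs). In plasma-like cells Retreg1 fell (-0.86) and Pink1 was called higher (1.0), though in WT it lay below its resting-like value. Pink1 stood there at 58.2, 72.1 and 22.8 CPM in the 3′RR-BCL2, Igκ-BCL2 and WT libraries, against 25.9, 24.1 and 30.5 in resting-like cells. It was called lower in non-dividing GC-like (-0.67), dividing GC-like (-1.32) and activated (MYC-high)-like cells (-0.53). In the list as a whole 2 were higher and 3 lower in non-dividing GC-like cells, beside 12.6% and 13.6% of all genes. In dividing GC-like cells 2 were higher and 5 lower, beside 9.53% and 13.7%. In plasma-like cells 1 was higher and 2 lower, beside 6.6% and 8.7%.

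Lysosomal genes, which serve the last step of autophagy, were listed with their transcription factors Tfeb, Tfe3 and Mitf. Of the 24 tested, 1 was higher and 7 lower in non-dividing GC-like cells, where 12.6% of all genes were higher and 13.6% lower. In dividing GC-like cells 0 were higher and 10 lower, beside 9.53% and 13.7% of all genes. The median of the list was -0.23 and -0.82, beside -0.09 and -0.39 over all genes. The cysteine protease gene Ctss fell by 1.06 and by 1.98 in these classes, Psap by 1.06 and by 1.38, and Npc2 by 0.80 and by 1.67. The 1 gene higher in non-dividing GC-like cells was Tfeb, a transcription factor and not a gene of the lysosome itself (log2 fold change 0.48). In plasma-like cells 3 were higher and 4 lower, beside 6.6% and 8.7% of all genes. Ctsb stood there at 179, 309 and 129 CPM, against 50.8, 57.1 and 50.2 in resting-like cells (log2 fold change 1.91). Npc2 was 1.72 higher. Tfeb, 1 of the 4 lower genes (-2.0), rested on few UMIs, at 13.4, 13.7 and 7.60 CPM in the 3′RR-BCL2, Igκ-BCL2 and WT libraries.

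The genes whose levels ran most like those of the called genes over the 24 class and library sums were named by Pearson's r among 468 well-counted genes. The sums share libraries and cells of like depth, so these values describe the pattern only. For Map1lc3b they were Btg2 (r = 0.83), Serp1 (0.82) and Ftl1 (0.78), and for Map1lc3a Btg2 (0.77) and Rsrp1 (0.61). Sqstm1 ran most like the immediate early genes Fos (0.83) and Jund (0.77) and like Mcl1 (0.81). For Bnip3l they were Cd79b (0.76), H2-Ob (0.72) and Cd79a (0.72), and for Gabarapl2 Apoe (0.69), Mzb1 (0.62) and Uqcrh (0.59).

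**Figure D3:**
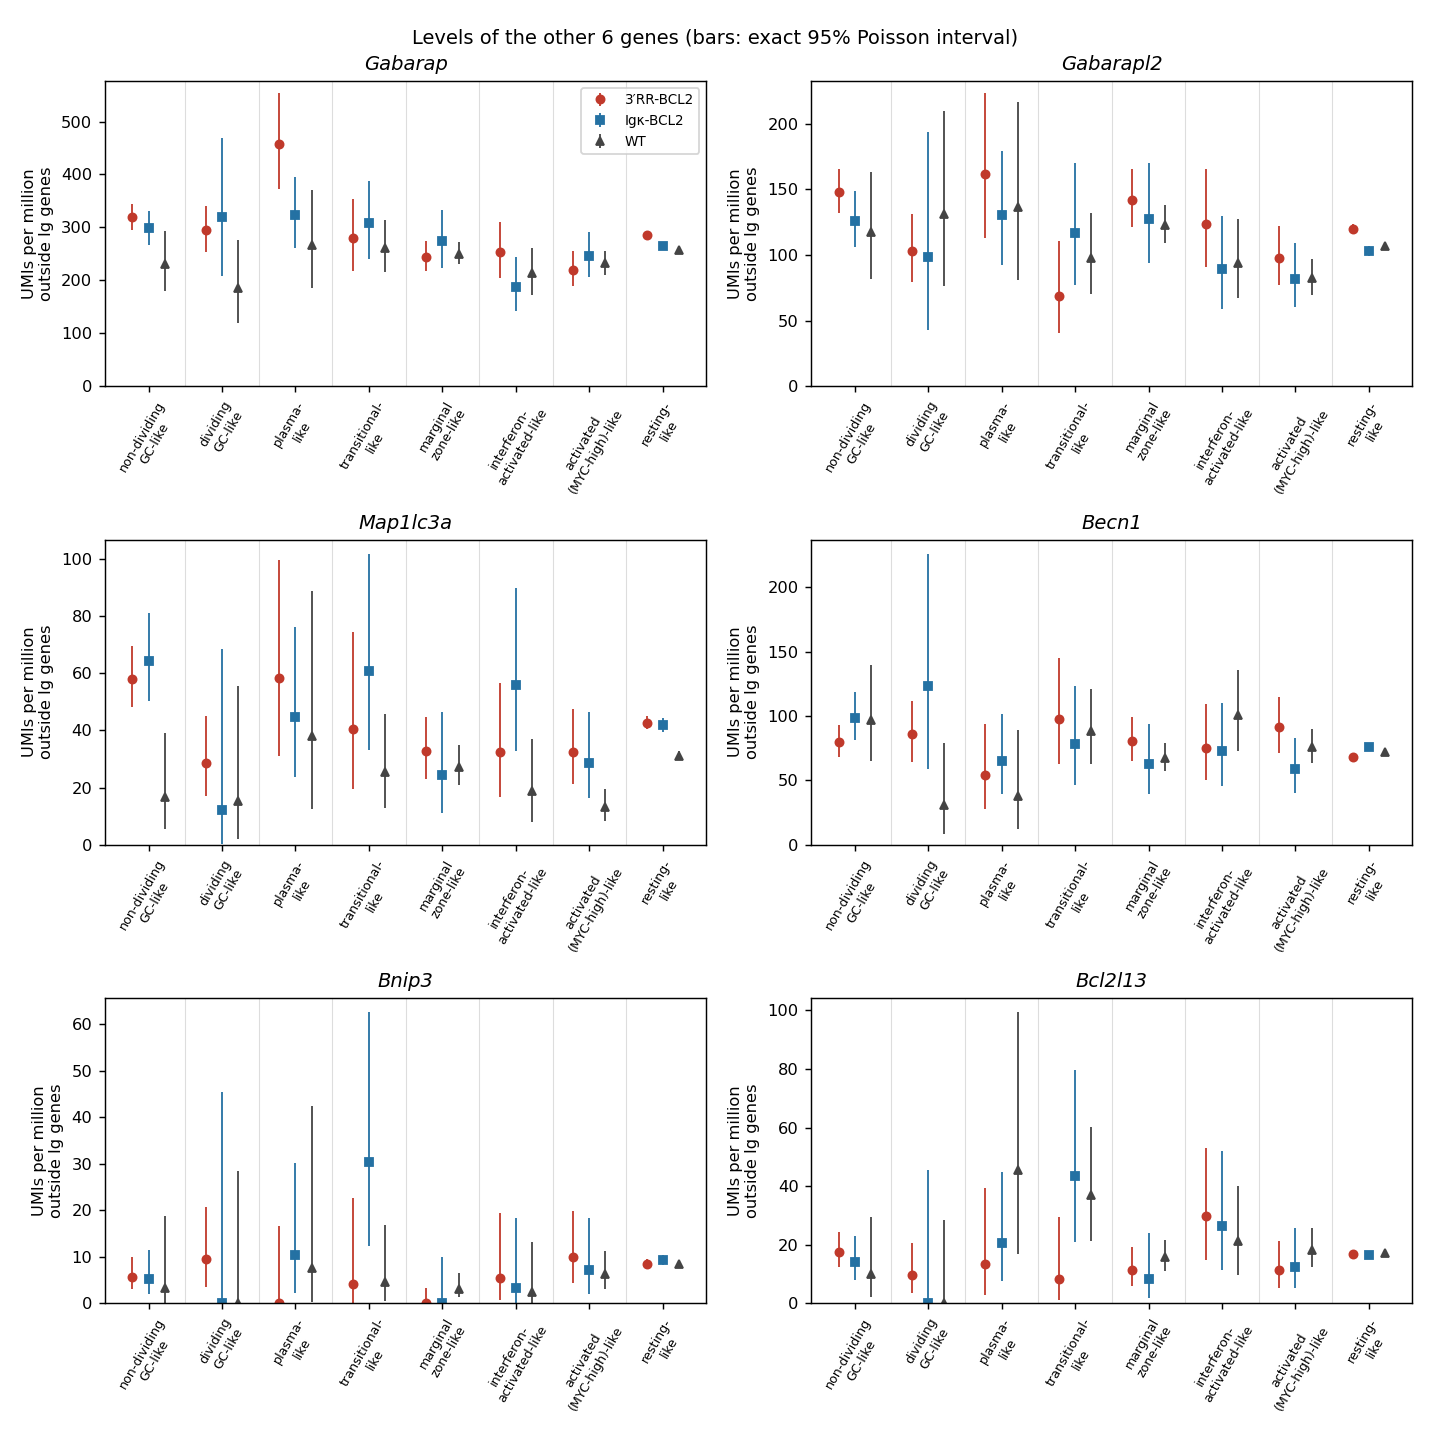
Levels of Gabarap, Gabarapl2, Map1lc3a, Becn1, Bnip3 and Bcl2l13 in CPM outside immunoglobulin genes (vertical axes, each from 0) in 8 classes, with 1 point per library and exact 95% Poisson intervals, which cover counting error only. Map1lc3a in non-dividing GC-like cells stood at 58.1 and 64.4 CPM in the 3′RR-BCL2 and Igκ-BCL2 libraries and at 16.7 in the WT library.

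The genotypes were compared within a class, which asks whether cells of the same kind differ with BCL2. With 1 library per genotype there is no test, and each ratio is given with an exact 95% interval that covers counting error only. In resting-like cells 0 of the 10 genes were past 1.5-fold in either BCL2 library, while 9.26% of all genes were in 3′RR-BCL2 cells and 13.1% in Igκ-BCL2 cells. Map1lc3a came nearest, with 42.7 CPM in 3′RR-BCL2 cells and 41.9 in Igκ-BCL2 cells, against 31.0 in WT cells. Its log2 ratios were 0.46 (0.35 to 0.57) and 0.43 (0.32 to 0.54). For Sqstm1 the log2 ratios over WT were 0.24 (0.18 to 0.30) and 0.16 (0.10 to 0.23), and for Map1lc3b 0.18 (0.13 to 0.22) and 0.20 (0.15 to 0.24). Becn1, Bnip3l, Bnip3 and Bcl2l13 lay between -0.09 and 0.13 in both comparisons. The median over the 10 genes was 0.12 in 3′RR-BCL2 cells and 0.10 in Igκ-BCL2 cells, beside -0.06 and 0.02 over all genes.

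Heat shock genes differed between the libraries by more than the 10 genes did. Of 10 heat shock genes, 9 were at least 1.5-fold higher in resting-like cells of each BCL2 library, and Hspa1a stood at 462 CPM in 3′RR-BCL2 cells and 968 in Igκ-BCL2 cells, against 5.82 in WT cells. Immediate early genes had median log2 ratios of 0.44 and 0.37, with Atf3 at 1.11 and 1.43. Sample handling is not described separately for each library, and the part of these genes in the ratios above was not tested. Of 30 other core autophagy genes, 0 were past 1.5-fold in 3′RR-BCL2 resting-like cells, where they ran from -0.38 (Atg4c) to 0.24 (Atg101), and 1 was in Igκ-BCL2 cells, Pik3r4 at -0.81 (-0.89 to -0.72), with Atg4a at the upper end (0.43). Receptors and related genes ran from the kinase gene Pink1 (-0.23) to Optn (0.55) in 3′RR-BCL2 cells. In Igκ-BCL2 cells they ran from Pink1 (-0.34) to Nbr1 (0.40). Lysosomal genes ran from Lamtor1 (-0.18) to Neu1 (0.34) in 3′RR-BCL2 cells and from Lamtor1 (-0.34) to Ctsl (0.74) in Igκ-BCL2 cells.

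In non-dividing GC-like cells the WT library had 30 cells, and ratios over it are wide. Ulk1 was 7.40-fold higher in the 3′RR-BCL2 library (log2 ratio 2.89, interval 0.35 to 8.22) and 9.21-fold higher in the Igκ-BCL2 library (3.20, interval 0.63 to 8.55), against the single WT UMI. Map1lc3a stood at 58.1 CPM in 3′RR-BCL2 cells and 64.4 in Igκ-BCL2 cells (122 and 73 UMIs), against 16.7 in WT cells (5 UMIs), which made log2 ratios of 1.80 (0.53 to 3.44) and 1.94 (0.65 to 3.61). Bcl2l13 also passed 1.5-fold in 3′RR-BCL2 cells (17.6 against 10.0 CPM in WT), with an interval of -0.85 to 3.15. That made 3 of 9 genes with at least 20 UMIs in 3′RR-BCL2 cells, where 31.3% of all genes were past 1.5-fold and 16.0% were higher, and 2 of 8 in Igκ-BCL2 cells, where 34.7% were and 20.6% were higher. With cells thinned to 1000 UMIs before classification each count was 1. With 1 more marker required, and 0.5 UMIs added to each sum, the Map1lc3a log2 ratio in 3′RR-BCL2 cells was 0.51, beside 1.66 under the first rule on the same scale. Map1lc3b, at 1.14-fold in 3′RR-BCL2 cells and 1.32-fold in Igκ-BCL2 cells, and Becn1, at 0.824-fold and 1.02-fold, stayed within 1.5-fold. Of the other lists, Ambra1 was the lowest core gene in 3′RR-BCL2 (-1.05, interval -2.10 to 0.13) and Igκ-BCL2 cells (-0.55, interval -1.65 to 0.67). Both of these intervals reached WT, which had 10 UMIs. Optn was the highest receptor, at 1.98 (0.58 to 3.88) and 1.83 (0.39 to 3.76), on 4 WT UMIs. Hspa1a had 234 and 224 UMIs in these cells, against 0 in WT.

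Map1lc3a was above WT in 8 of 8 classes of the 3′RR-BCL2 library and in 6 of 8 of the Igκ-BCL2 library, with intervals clear of WT in 3 and in 5 classes. Activated (MYC-high)-like cells had 32.5 CPM in 3′RR-BCL2 cells and 28.5 in Igκ-BCL2, against 13.1 in WT, ratios of 2.49 (1.37 to 4.57) and 2.18 (1.08 to 4.32), where 4.14% and 6.56% of all genes were at least 1.5-fold higher. Map1lc3b was above WT in 8 of 8 and in 7 of 8 classes, by less. In plasma-like cells Gabarap was 1.72-fold higher in the 3′RR-BCL2 library than in WT (1.16 to 2.60) and 1.21-fold in the Igκ-BCL2 library (0.815 to 1.84). The 3′RR-BCL2 ratio came from barcodes beyond the limits used for the other classes. Gabarap stood there at 480 CPM in 3′RR-BCL2 and 185 in WT (69 and 16 UMIs). Within the limits it stood at 416 and 422 CPM (33 and 19 UMIs). Bnip3l had plasma-like ratios of 2.36 (0.939 to 7.05) and 1.73 (0.685 to 5.2), on 6 WT UMIs. Within the limits Bnip3l stood at 63.0, 92.6 and 88.8 CPM in the 3′RR-BCL2, Igκ-BCL2 and WT libraries (5, 12 and 4 UMIs). Beyond them it stood at 132, 68.0 and 23.1 CPM (19, 11 and 2 UMIs). Over the whole class 2 genes were higher in 3′RR-BCL2 plasma-like cells, with 17.6% of all genes, and 1 in Igκ-BCL2 ones, with 19.7%.

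The remaining ratios past 1.5-fold, among genes with at least 20 UMIs in either library, were spread over 5 classes. In dividing GC-like cells Becn1 was 2.78-fold higher in 3′RR-BCL2 than in WT cells (1.02 to 10.6, on 4 WT UMIs), and Gabarap was 1.59-fold (1.04 to 2.55) and 1.73-fold (0.954 to 3.14) higher in 3′RR-BCL2 and Igκ-BCL2 cells than in WT cells. At least 1.5-fold higher there were 19.8% and 14.8% of all genes. Sqstm1 was 1.79-fold higher in 3′RR-BCL2 interferon-activated-like cells (1.16 to 2.80), with 7.39% of all genes. Lower values had intervals that reached WT: Ulk1 in marginal zone-like cells, at 0.55-fold in 3′RR-BCL2 (0.182 to 1.41) and 0.29-fold in Igκ-BCL2 (0.007 to 1.80, on 1 UMI), Bcl2l13 at 0.521-fold in the same Igκ-BCL2 cells (0.103 to 1.65, on 3 UMIs), where 8.57% and 14.6% of all genes were lower, and Bcl2l13 at 0.62-fold in 3′RR-BCL2 activated (MYC-high)-like cells (9.72% lower). Bnip3l in Igκ-BCL2 transitional-like cells was at 0.662-fold (0.414 to 1.03), and not past 1.5-fold with 0.5 UMIs added to each sum (12.4% of all genes lower).

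**Figure D4:**
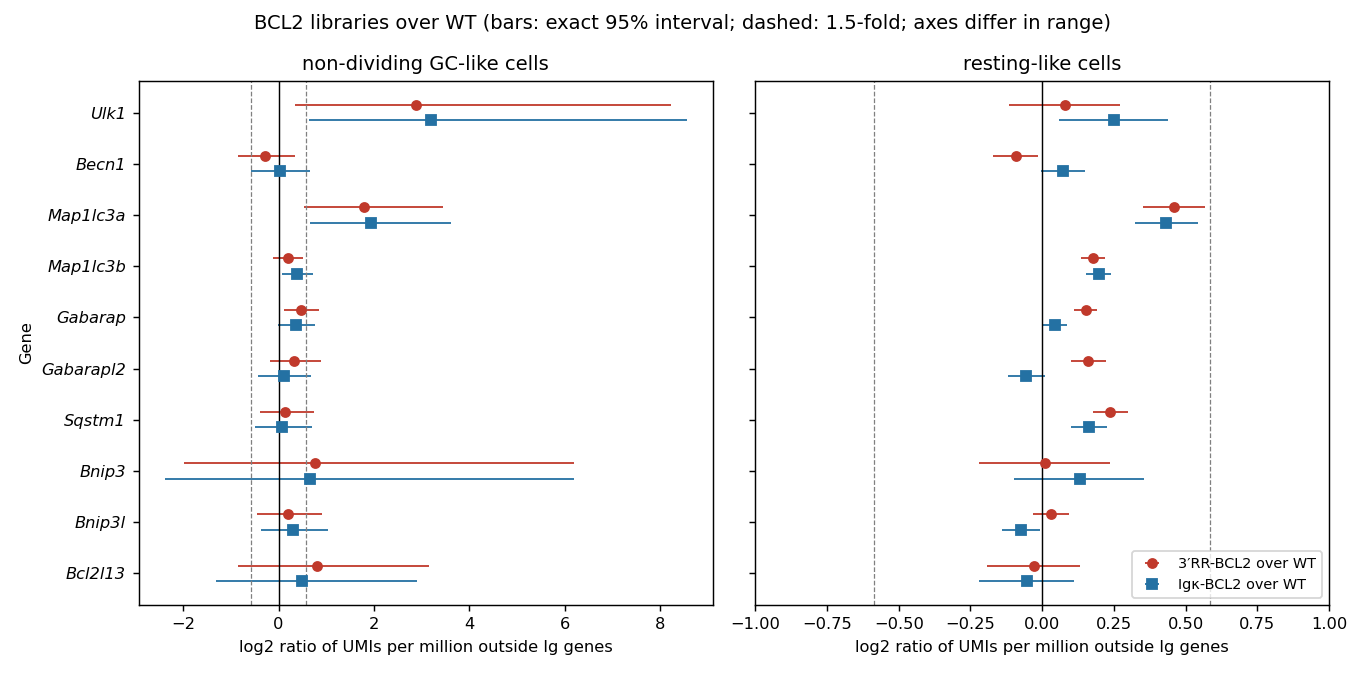
Log2 ratio of each BCL2 library over WT (horizontal axes, which differ in range) for the 10 genes in non-dividing GC-like cells (left) and resting-like cells (right), with exact 95% intervals that cover counting error only and dashed lines at 1.5-fold. In resting-like cells all points lie inside the dashed lines, with Map1lc3a at 0.46 and 0.43; in non-dividing GC-like cells Ulk1 and Map1lc3a lie outside them on 1 and 5 WT UMIs.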

How the data were processed

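The authors captured splenic B cells with the 10x 3′ kit and made filtered matrices with Cell Ranger 6.1.1. The deposited values are raw UMI counts per gene and cell on the mm10 build, 1 library per genotype. GENCODE annotation held 32158 of the 32285 gene IDs. Barcodes with fewer than 800 or more than 4500 genes, over 20000 UMIs, over 8% mitochondrial or under 10% ribosomal protein UMIs, or more than 1 UMI of Cd3 or of C1q genes were dropped, leaving 6546, 6237 and 9925 cells in the 3′RR-BCL2, Igκ-BCL2 and WT libraries. Classes were set by markers on cells thinned to 2000 UMIs, with 160, 135 and 177 shallower cells left out. Plasma-like cells were exempt from the upper limits and the ribosomal minimum. GC-like cells needed 3 of 10 markers, met exactly by 195, 84 and 27 cells. 433, 250 and 275 cells remained unassigned. Doublets were not removed.

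Unthinned counts were summed per class and library and tested with edgeR 4.0.16 in R 4.3.3 (at least 30 summed UMIs, TMM, library as block, adjusted p under 0.05). Ratios between libraries used exact 95% intervals. The tests were checked on simulated data. The 10 genes, the gene lists and the tests were chosen with earlier results of these data known. Genes outside the 10 are named by a rule: for each list, the 2 highest and 2 lowest called genes in GC-like and plasma-like cells, and the highest and lowest genotype ratio in resting-like and non-dividing GC-like cells (those most relevant are printed), heat shock and immediate early genes where they move with a result, and the 3 genes most alike each gene called in several classes. Alternatives included DESeq2 1.42.0, other cell rules and scalings, and leaving out each library. 1 listed gene was not found and 1 with a pair of IDs was left out. Some genes that the rule names are not reported here.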

Additional observations from a re-analysis of the deposited data

Results flagged for a closer look

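Ulk1 ran in opposite directions in the libraries when dividing GC-like cells were set against non-dividing ones. In the WT library its log2 ratio was 3.52, from 5 UMIs in dividing and 1 UMI in non-dividing GC-like cells. In the 3′RR-BCL2 library it was -1.38, from 6 UMIs in dividing and 52 in non-dividing GC-like cells. The Igκ-BCL2 library had 1 UMI in dividing GC-like cells. The difference between the libraries was not tested, and it rests on these few UMIs.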

How the results depend on the processing

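Over the 17 calls of the 10 genes, the alternatives gave 156 values on the same side of the threshold, 68 in the same direction that lost the call, and 1 reversed: Gabarapl2 in marginal zone-like cells, -0.10 with cells thinned to 1000 UMIs. Genes of the 10 called in non-dividing GC-like cells numbered 3, 1 by DESeq2 and 0 to 4 without 1 library. In dividing GC-like cells they were 3, 1 by DESeq2, 1 with cells thinned to 1000 UMIs and 0 to 2 without 1 library. In plasma-like cells they were 2, and 1 with the upper limits kept. In transitional-like cells they were 1, 0 with thinning to 1000 UMIs and 2 with library totals. In marginal zone-like cells they were 3, 1 by DESeq2, 0 with 1 more marker required, 1 with thinning to 1000 UMIs, 1 with no replicate block and 1 to 3 without 1 library. In activated (MYC-high)-like cells they were 4, 2 by DESeq2, 2 with all classes in one fit, 1 with no replicate block and 0 to 4 without 1 library. In dividing against non-dividing GC-like cells the 1 call became 3 with all classes in one fit, 4 with the looser cell filter, and 0 by DESeq2, with 1 more marker, thinning to 1000 UMIs, no replicate block, another random thinning, library totals and without any 1 library. In interferon-activated-like cells the count was 0 throughout. Past 1.5-fold over WT in non-dividing GC-like cells, the 3 genes of 3′RR-BCL2 became 1 with thinning to 1000 UMIs, and the 2 of Igκ-BCL2 became 1 with that thinning and 1 with a minimum of 50 UMIs.

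Counts of all genes called were, in non-dividing GC-like cells, 3501, 2170 by DESeq2 and 1227 to 3754 without 1 library; in dividing GC-like cells 3093, 1896 by DESeq2, 1380 with thinning to 1000 UMIs, 5869 with the looser filter and 1233 to 2681 without 1 library; in plasma-like cells 2036, 625 with the upper limits kept and 1175 to 1525 without 1 library. In transitional-like cells they were 593, 310 by DESeq2, 241 with 1 more marker, 215 with thinning to 1000 UMIs, 213 with no replicate block and 292 to 389 without 1 library. In marginal zone-like cells they were 1503, 631 by DESeq2, 820 in one fit, 595 with 1 more marker, 790 with thinning to 1000 UMIs, 520 with no replicate block and 556 to 1658 without 1 library. Interferon-activated-like cells had 372, and 240 with no replicate block. Activated (MYC-high)-like cells had 3236, 2112 by DESeq2, 1596 with thinning to 1000 UMIs and 1985 to 2815 without 1 library. Dividing against non-dividing GC-like cells gave 681, 316 by DESeq2, 1160 in one fit, 433 with 1 more marker, 223 with thinning to 1000 UMIs, 2077 with the looser filter and 178 to 701 without 1 library. Causes were not tested. The other random thinning and the library totals were chosen after seeing the data.

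No paired analysis was possible because the genotypes share the replicate number 1 only; the block of the class comparisons is the library. Depth limits Ulk1, Bnip3 and Bcl2l13, which had 0 to 52 UMIs per library outside resting-like cells, and every ratio over WT in GC-like and plasma-like cells.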

Other observations

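SQSTM1 helps to free the factor NRF2 from its inhibitor KEAP1. The list of genes that depend on NRF2 also held Nfe2l2, which encodes NRF2, and Keap1. Of its 9 genes tested, 2 were higher in non-dividing GC-like cells, 1 in dividing GC-like and 1 in plasma-like cells. Of all genes, 12.6%, 9.53% and 6.6% were higher, and 0 of the 9 were lower in each. Nfe2l2 and Keap1 were called in none of these 3 classes. Prdx1, a peroxiredoxin, was called higher in these 3 classes, and also in marginal zone-like (0.32) and activated (MYC-high)-like cells (0.93). It had 363, 172 and 441 CPM in plasma-like cells of the 3′RR-BCL2, Igκ-BCL2 and WT libraries, against 147, 129 and 139 in resting-like cells (log2 fold change 1.08). Hmox1, which degrades heme, was called in non-dividing GC-like cells at 4.77, 6.17 and 3.35 CPM, against 0.522, 1.45 and 0.449 in resting-like cells. The WT value in non-dividing GC-like cells is 1 UMI. Hmox1 was also called higher in marginal zone-like cells (2.62). In resting-like cells Hk2 was the hypoxia-inducible gene with the highest ratio over WT in both BCL2 libraries, with a log2 ratio of 1.72 (1.52 to 1.92) for the 3′RR-BCL2 library and of 1.0 (0.78 to 1.22) for the Igκ-BCL2 library.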
